A study of Rattus norvegicus with 32 samples.

Results

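The genes described here are 35 genes of the cell division cycle, chosen by gene symbol and followed in liver sinusoidal endothelial cells (LSECs, the fenestrated endothelium that lines the hepatic sinusoids) of rats. A row with the symbol was found for 34 of the 35 among 32623 genes per library, and the 35th, Ccnb2, had no row and is not analysed here. Bulk polyA RNA sequencing was made from 32 libraries, each counted as 1 replicate of its labelled group. The 6 healthy libraries came from untreated Wistar Han rats, 5 acute libraries from Wistar Han rats after 2 weeks of inhaled carbon tetrachloride (CCl4, a liver toxicant), 5 fibrosis libraries after 6 weeks, and 6 cirrhosis libraries after 12 to 14 weeks. A second experiment held 5 libraries labelled control (T control) and 5 labelled TAA control rat (T TAA control), TAA being thioacetamide, another liver toxicant. The sample labels give Wistar Han for these 10 libraries too, whereas the series design text gives Sprague-Dawley, and the labels do not settle which of the groups was given TAA, so the difference is described by label name alone. All animals were male, the CCl4 model included phenobarbital in the drinking water, cells were taken some days after the last toxicant dose, and ages are not given in the sources used here. The labels do not say that each library is a separate animal, so p-values measure the spread between libraries.

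A cell enters division when D-type cyclins with Cdk4 and Cdk6, and then E-type cyclins with Cdk2, release E2F factors, which switch on the genes for licensing and copying DNA. Replication origins are licensed when Cdc6 helps to load the ring of Mcm2 to Mcm7, the helicase, and mitosis is driven by Cdk1 with A-type and B-type cyclins, followed by kinases, motors and checkpoint proteins of the spindle. In the healthy adult liver most LSECs are quiescent, and sinusoidal endothelium divides after loss of liver tissue. The members are taken below in the order of these roles.

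Promoter sequences were shown for 6 members whose transcript levels carry the comparisons below: both proliferation markers, 2 mitotic entry genes and 2 MCM genes that were called in opposite directions. They were taken from RefSeq on the GRCr8 assembly, whose promoter table held 24 of the 35 members, as the 250 bases before the annotated start, 5′ to 3′ on the strand of the gene. Capitals mark matches on either strand to the CCAAT box (CCAAT), to 2 forms of the cell cycle homology region (TTTGAA and TTCGAA) and to 3 forms of the E2F site (TTTCCCGC, TTTGGCGC and TTTCGCGC), and where matches overlapped the capitals run together. The windows were chr1:199952594-199952843 (minus strand) for Mki67, chr10:84473094-84473343 (minus) for Top2a, chr2:33655226-33655475 (minus) for Ccnb1, chr20:19265043-19265292 (plus) for Cdk1, chr19:13488563-13488812 (plus) for Mcm5 and chr12:22163179-22163428 (minus) for Mcm7.
Mki67: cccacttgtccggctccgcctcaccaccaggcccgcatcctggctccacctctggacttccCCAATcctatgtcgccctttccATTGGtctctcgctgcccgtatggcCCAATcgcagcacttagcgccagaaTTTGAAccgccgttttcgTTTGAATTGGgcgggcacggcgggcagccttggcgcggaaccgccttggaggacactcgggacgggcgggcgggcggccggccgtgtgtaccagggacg
Top2a: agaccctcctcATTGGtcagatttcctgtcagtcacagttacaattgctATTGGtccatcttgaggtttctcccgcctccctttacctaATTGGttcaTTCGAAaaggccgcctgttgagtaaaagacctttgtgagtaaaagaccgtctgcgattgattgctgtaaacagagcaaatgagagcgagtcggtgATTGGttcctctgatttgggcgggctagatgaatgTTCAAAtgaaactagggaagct
Ccnb1: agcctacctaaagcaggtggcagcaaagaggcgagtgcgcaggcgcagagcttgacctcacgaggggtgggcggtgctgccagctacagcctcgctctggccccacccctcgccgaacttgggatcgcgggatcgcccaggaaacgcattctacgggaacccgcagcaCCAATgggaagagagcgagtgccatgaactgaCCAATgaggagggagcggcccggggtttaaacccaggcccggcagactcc
Cdk1: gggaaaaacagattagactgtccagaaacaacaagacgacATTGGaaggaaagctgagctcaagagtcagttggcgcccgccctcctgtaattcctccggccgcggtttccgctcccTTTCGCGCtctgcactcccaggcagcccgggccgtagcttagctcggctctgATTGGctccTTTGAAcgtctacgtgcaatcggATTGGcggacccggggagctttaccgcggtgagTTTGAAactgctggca
Mcm5: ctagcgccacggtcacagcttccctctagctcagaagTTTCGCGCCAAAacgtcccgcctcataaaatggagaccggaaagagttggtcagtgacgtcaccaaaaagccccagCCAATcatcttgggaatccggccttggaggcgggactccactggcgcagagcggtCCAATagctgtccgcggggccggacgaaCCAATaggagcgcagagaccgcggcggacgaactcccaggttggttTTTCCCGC
Mcm7: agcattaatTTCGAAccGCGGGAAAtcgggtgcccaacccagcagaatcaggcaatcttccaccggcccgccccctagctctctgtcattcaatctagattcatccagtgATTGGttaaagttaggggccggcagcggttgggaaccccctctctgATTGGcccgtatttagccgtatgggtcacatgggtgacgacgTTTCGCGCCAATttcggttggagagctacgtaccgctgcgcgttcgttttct

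In the full windows of 300 bases, which run from 250 bases before to 50 bases after the start, the third E2F form, TTTCGCGC, was found in 6 of the 24 members, against 0.326% of 33469 promoters in the table. Those 6 were Mcm2, Mcm3, Mcm5, Mcm6, Mcm7 and Cdk1, so that all 5 origin licensing genes with a promoter held it (Cdc6 and Mcm4 had no entry). Mcm5 carried all 3 E2F forms, with TTTCGCGC and TTTGGCGC overlapping on opposite strands. TTTCCCGC was present in Mcm3, Mcm5 and Mcm7 (0.974% of all promoters) and TTTGGCGC in Tyms, Mcm5 and Mcm6 (0.493%). The CCAAT box was found in 17 of 24 members (37.5% of all promoters), in both proliferation markers and in all 3 mitotic entry genes with an entry. TTTGAA was found in 9 members (18.3% of all promoters): Plk1, Mki67, Bub1b, Mcm2, Cdc20, Ccnb2, Top2a, Birc5 and Cdk1. TTCGAA was found in Rrm1, Bub1b, Top2a and Mcm7 (1.69%). In Mki67 a TTTGAA match overlapped a CCAAT box read on the other strand, and in Mcm7 a TTTCGCGC match overlapped a CCAAT box. These matches describe letters in the window and no binding was measured. No coordinates of the members are given from the files, which were made on Rnor_6.0 and list identifiers only.

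Depth ranged from 25646531 to 46464289 counts per library, and levels below are in CPM, a gene's counts relative to the total of its library after TMM scaling, which is a correction for library composition that was computed separately for the 22 libraries of the CCl4 series and for the 10 T libraries. The label LSEC was checked with 11 marker genes. Their summed level lay between 15900 and 29600 CPM in healthy and between 15100 and 19300 CPM in cirrhosis libraries, but between 3940 and 4750 CPM in acute and between 2810 and 3730 CPM in fibrosis libraries. In the acute group the scavenger receptor Stab2 was at 99.6 to 273 CPM (healthy 1470 to 5060), whereas the endothelial cadherin Cdh5 was at 1320 to 2150 CPM (healthy 775 to 1760). In bulk libraries fewer cells of a type and less RNA per cell cannot be told apart. T TAA control replicates 14 and 15 differed least of all within-group pairs (chi-square per degree of freedom 2.96, next lowest pair 23.6), still above sampling noise, and were kept as 2 libraries. Levels were not compared between genes, since no transcript lengths were used.

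A gene was called when its limma-voom adjusted p (Benjamini-Hochberg over all genes tested, two-sided) was under 0.05 and its fold change above 1.5. Against healthy LSECs, 19 of 34 members were called in the acute group, 6 higher and 13 lower, where 73.4% of all 14317 genes tested were called (35.5% higher and 37.9% lower). In the fibrosis group 21 members were called, 7 higher and 14 lower, where 70.2% of 14538 genes were called (35.3% higher, 34.9% lower). In the cirrhosis group 16 were called, 10 higher and 6 lower, where 51.8% of 14789 genes were called (27.1% higher, 24.7% lower). These 3 contrasts share the healthy libraries. With scaling by library size alone the splits were 8 higher and 10 lower, 12 higher and 9 lower, and 13 higher and 4 lower, while the median log2 fold change of all genes moved from -0.09 to 0.32, from -0.03 to 0.37 and from 0.07 to 0.42. Of all genes 73.6%, 70.4% and 54.3% were then called, and 58.2%, 60.9% and 71.3% of those called were higher. Between the T groups, 16 members were called and all 16 were lower in T TAA control, where 27.6% of 14376 genes were called (12.7% higher, 14.9% lower). The median log2 fold change over the 34 members was -0.38 (acute), -0.19 (fibrosis), 0.22 (cirrhosis) and -0.66 (T), against medians of -0.09, -0.03, 0.07 and 0.03 over all genes tested.

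**Figure D1:**
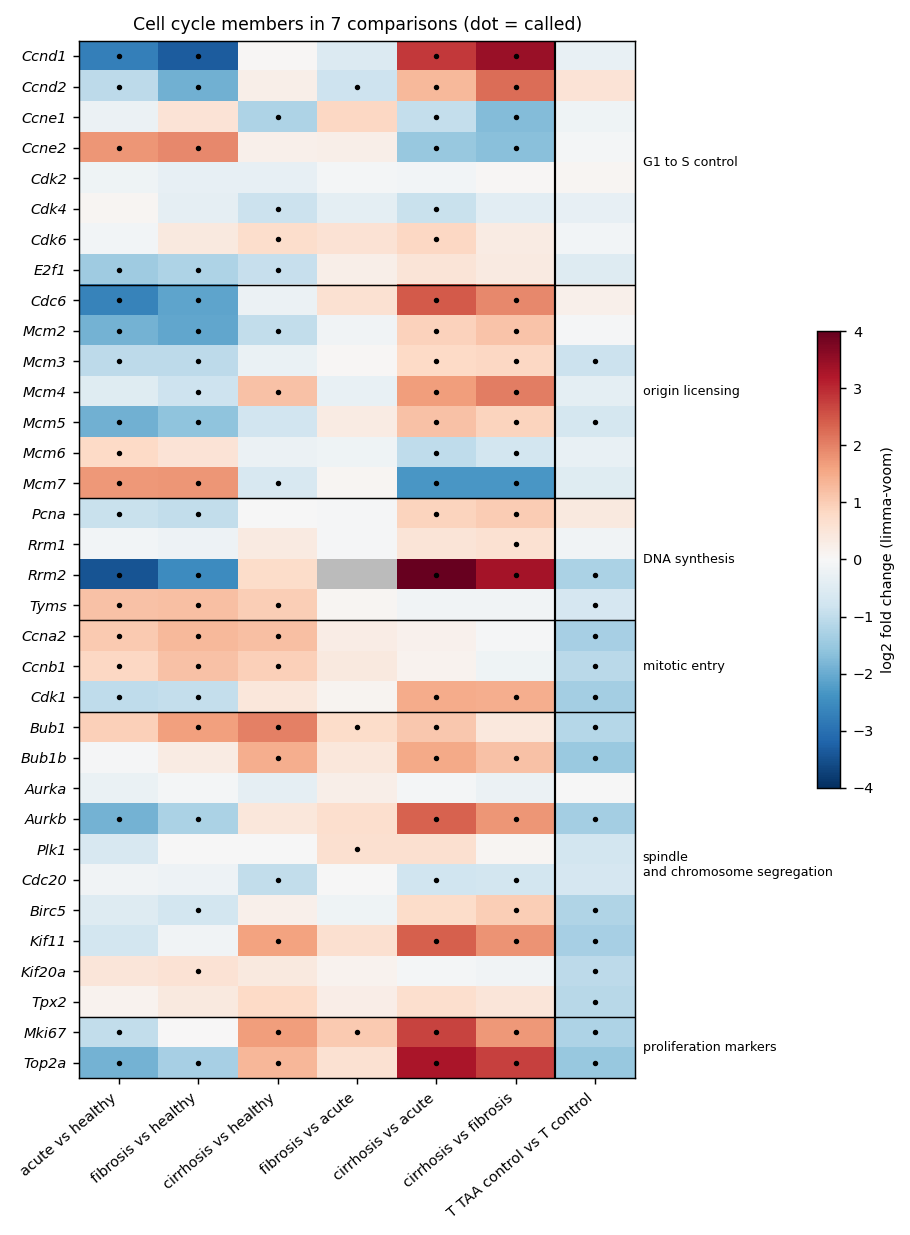
Rows are the 34 members with a row in the files, ordered by role, and columns are the 7 comparisons; colour gives the limma-voom log2 fold change (first named group minus second), a dot marks a call and grey a gene not tested. G1 and licensing genes are mostly blue in the acute and fibrosis columns, most mitotic genes are red in cirrhosis vs healthy, with Cdc20 a called fall, and most are blue in the T column.

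The groups did not overlap, counted on CPM scaled by TMM over the 2 groups of each comparison alone, for 16 members in acute vs healthy (60.4% of all genes), 15 in fibrosis vs healthy (59%), 5 in cirrhosis vs healthy (27.2%) and 6 between the T groups (35.4%). Among the CCl4 stages themselves, 4 of 33 members tested were called between fibrosis and acute (11% of all 13931 genes, 10.2% higher and 0.732% lower), 23 of 34 between cirrhosis and acute (69.3% of 15005 genes, 37.5% higher and 31.8% lower) and 22 between cirrhosis and fibrosis (63.8% of 15186 genes, 34.3% higher and 29.5% lower). Non-overlapping members numbered 5 (14% of all genes), 21 (65.9%) and 17 (63.3%) in these 3 comparisons. On the CPM printed here, scaled over all 22 libraries of the CCl4 series, Mcm6 in fibrosis vs healthy and Rrm1 in cirrhosis vs healthy overlapped slightly although counted as separate, and overlap of a named gene below refers to the CPM printed. In each comparison within the CCl4 series the share of members called was near or below that of all genes. Between the T groups it was above it.

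Among the G1 to S genes, the D-type cyclins fell in the early stages. Ccnd1 (ENSRNOG00000020918), the cyclin D1 that couples mitogen signals to Cdk4 and Cdk6, was 89.3 to 155 CPM (median 112, n = 6) in healthy libraries, 21.3, 14.4, 12.9, 24.9 and 13.2 CPM in acute, 14.5, 14.3, 11.9, 11.2 and 5.63 CPM in fibrosis and 91.5 to 152 CPM (median 116, n = 6) in cirrhosis libraries. Every acute and fibrosis library was thus far below every healthy one, and the cirrhosis libraries overlapped the healthy ones. The log2 fold change against healthy was -2.75 ± 0.21 (standard error here and below), adjusted p = 1.89e-07 in the acute group, -3.34 ± 0.23, adjusted p = 1.46e-07 in fibrosis and 0.06 ± 0.17, adjusted p = 0.768 in cirrhosis. Ccnd2, cyclin D2, averaged 62.6 ± 19.5 CPM (SD, n = 6) in healthy, 28.6 ± 2.5 (n = 5) in acute, 15.4 ± 3.11 (n = 5) in fibrosis and 70.9 ± 7.52 (n = 6) in cirrhosis libraries. It fell in the acute (log2 -1.05 ± 0.20, adjusted p = 0.000509) and fibrosis groups (-1.93 ± 0.23, adjusted p = 1.15e-05). It was also the single member called lower in fibrosis than in acute libraries (-0.84 ± 0.13, adjusted p = 0.00473).

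Ccne2, an E-type cyclin that activates Cdk2, moved the other way. It was 0.308 to 2.3 CPM (median 1.66, n = 6) in healthy libraries, 3.78, 3.87, 3.94, 3.75 and 4.99 CPM in acute and 5.57, 5.09, 4.49, 3.19 and 4.32 CPM in fibrosis libraries, with no overlap between either stage and healthy. It rose by a log2 fold change of 1.75 ± 0.41, adjusted p = 0.00199 and 1.93 ± 0.42, adjusted p = 0.00128, and at 1.13 to 2.06 CPM (median 1.37, n = 6) the cirrhosis libraries lay within the healthy range (0.2 ± 0.41, adjusted p = 0.69). Ccne1, the other E-type cyclin, fell in cirrhosis, from 2.66 ± 0.928 to 1.08 ± 0.24 CPM (log2 -1.22 ± 0.28, adjusted p = 0.00312), with no overlap, and was not called at the earlier stages (log2 -0.23 and 0.55). E2f1, an activator of S phase genes, was lower in all 3 stages: 10.6 ± 3.26 CPM in healthy against 3.72 ± 0.826, 4.06 ± 0.608 and 5.32 ± 1.08 (log2 -1.43 ± 0.28, adjusted p = 0.000495, -1.25 ± 0.27, adjusted p = 0.00104 and -0.93 ± 0.25, adjusted p = 0.00663).

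Of the 3 kinase partners, Cdk4 and Cdk6 were called against healthy in cirrhosis and Cdk2 in no comparison. Cdk4 fell in cirrhosis, from 74.2 ± 15.9 to 40.2 ± 7 CPM (log2 -0.86 ± 0.18, adjusted p = 0.00166), and was not called in the acute and fibrosis groups (log2 0.07 and -0.37). It was directly lower in cirrhosis than in acute libraries (log2 -0.9 ± 0.14, adjusted p = 6.51e-05). Cdk6 rose in cirrhosis, from 4.68 ± 1.74 to 7.31 ± 1.13 CPM (log2 0.69 ± 0.22, adjusted p = 0.0166), a call that was lost without healthy replicate 2. Cdk2 was called in none of the 7 comparisons, with log2 differences between -0.32 and 0.07. In the T groups none of the 8 genes of this role was called: Ccnd1 averaged 130 ± 18.8 and 108 ± 25 CPM in T control and T TAA control, Ccnd2 72.6 ± 9.32 and 108 ± 16.7 (log2 0.56 ± 0.12, adjusted p = 0.00278, under the 1.5-fold threshold), and E2f1 11.3 ± 2.28 and 7.78 ± 0.907 CPM.

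Origin licensing genes were split within a single protein complex. Of the 7 members, 4 fell and 2 rose in the acute group, and 5 fell and 1 rose in fibrosis, where 73.4% and 70.2% of all genes were called. Mcm2 was 59.9 to 164 CPM (median 118, n = 6) in healthy, 30, 27.8, 30.6, 34.8 and 26 CPM in acute, 27.6, 23, 24.6, 25.7 and 27.3 CPM in fibrosis and 45.3 to 66.7 CPM (median 58.6, n = 6) in cirrhosis libraries. Acute and fibrosis libraries all lay below the lowest healthy library, and cirrhosis libraries were intermediate with a slight overlap. The log2 fold changes were -1.9 ± 0.23, adjusted p = 1.22e-05, -2.09 ± 0.23, adjusted p = 6.43e-06 and -1.0 ± 0.23, adjusted p = 0.00299. Mcm7 (ENSRNOG00000001349), another subunit of the same ring, was 22.4 to 42 CPM (median 36, n = 6) in healthy, 94, 105, 124, 92.3 and 147 CPM in acute, 99.1, 118, 115, 101 and 120 CPM in fibrosis and 19.7 to 25.5 CPM (median 21.2, n = 6) in cirrhosis libraries. All early stage libraries were above all healthy ones, and most cirrhosis libraries were below. Mcm7 rose by 1.73 ± 0.20, adjusted p = 6.93e-06 and 1.75 ± 0.17, adjusted p = 1.96e-06 on the log2 scale and fell by 0.63 ± 0.17, adjusted p = 0.00827 in cirrhosis, a fall that was lost in 5 of 23 alternative analyses. In GRCr8 the microRNA genes Mir25, Mir93 and Mir106b lie within Mcm7, and their part in its counts was not tested.

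Mcm6 rose with Mcm7 in the acute group, from 28.4 ± 6.31 to 46.9 ± 3.12 CPM (log2 0.79 ± 0.17, adjusted p = 0.000858), and was 39.2 ± 1.45 CPM in fibrosis, where the change was under the 1.5-fold threshold (log2 0.56 ± 0.16, adjusted p = 0.00689) and 1 fibrosis library at 37.9 CPM lay under the highest healthy one at 38.3 CPM. Mcm4 followed neither pattern. It was 33.3 to 53.4 CPM (median 39.3, n = 6) in healthy libraries, 22.8, 21.2, 23.7, 22.6 and 21.7 CPM in fibrosis and 59.1 to 120 CPM (median 94.1, n = 6) in cirrhosis libraries, so that the 3 groups were fully separated. It fell in fibrosis (log2 -0.83 ± 0.15, adjusted p = 0.000276) and rose in cirrhosis (1.16 ± 0.19, adjusted p = 0.000356), and the direct contrast of cirrhosis with fibrosis was 2.04 ± 0.17, adjusted p = 2.97e-07. Mcm5 averaged 17.6 ± 8.76 CPM in healthy, 4.09 ± 0.962 in acute, 4.94 ± 1.25 in fibrosis and 9.12 ± 1.65 in cirrhosis libraries (log2 -1.91 ± 0.40, adjusted p = 0.00087, -1.61 ± 0.40, adjusted p = 0.00278 and -0.77 ± 0.33, adjusted p = 0.0594, the last not called). Mcm3 averaged 32.2 ± 11.3 CPM in healthy, 14.1 ± 1.11 in acute and 14.1 ± 2.82 in fibrosis libraries (log2 -1.05 ± 0.26, adjusted p = 0.00291 and -1.05 ± 0.28, adjusted p = 0.00427).

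Cdc6, the loader of the ring, was 5.19 to 8.62 CPM (median 6.78, n = 6) in healthy, 1.12, 0.981, 1.22, 0.484 and 1.64 CPM in acute, 1.15, 1.97, 1.43, 1.52 and 1.23 CPM in fibrosis and 4.69 to 7.25 CPM (median 5.22, n = 6) in cirrhosis libraries. It fell by 2.67 ± 0.30, adjusted p = 6.13e-06 on the log2 scale in the acute group and by 2.12 ± 0.22, adjusted p = 4.28e-06 in fibrosis, with no overlap, and was not called in cirrhosis (log2 -0.25 ± 0.18, adjusted p = 0.261). All 7 licensing genes were called between cirrhosis and acute and between cirrhosis and fibrosis, where 69.3% and 63.8% of all genes were called. In cirrhosis 5 were higher (Cdc6, Mcm2, Mcm3, Mcm4 and Mcm5) and 2 lower (Mcm6 and Mcm7) each time. For Mcm7 these direct contrasts were -2.33 ± 0.14, adjusted p = 1.01e-08 and -2.33 ± 0.087, adjusted p = 5.16e-10. In the T experiment Mcm3 was 33.9, 33.3, 26.7, 32.8 and 31.5 CPM in T control and 19.2, 15, 17.2, 17.1 and 18.3 CPM in T TAA control libraries, without overlap (log2 -0.87 ± 0.09, adjusted p = 4.8e-05), and Mcm5 was also lower (-0.7 ± 0.14, adjusted p = 0.00234). Mcm4 and Mcm7 did not overlap between the T groups either but missed the fold threshold (log2 -0.39 and -0.47).

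**Figure D2:**
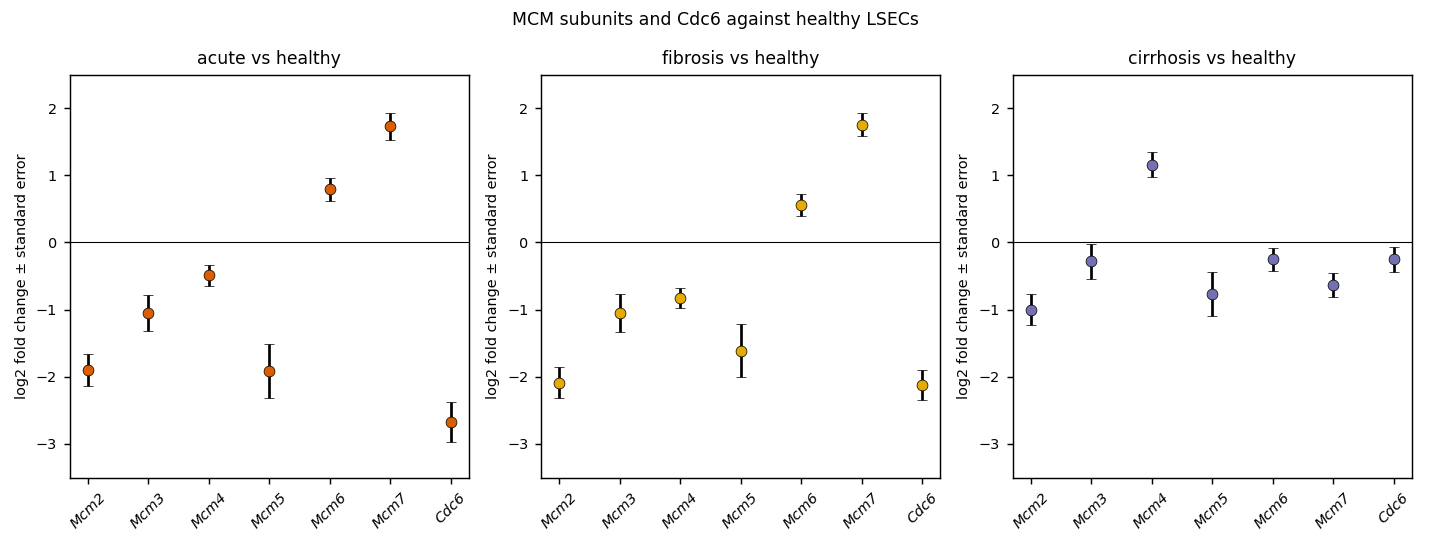
Points are limma-voom log2 fold changes of the 6 MCM subunits and Cdc6 in acute, fibrosis and cirrhosis LSECs against healthy LSECs, bars are standard errors. Mcm6 and Mcm7 lie above 0 in the first 2 panels while Mcm2, Mcm3, Mcm4, Mcm5 and Cdc6 lie below it, and Mcm4 alone lies above 0 in the cirrhosis panel.

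Among genes of DNA synthesis, Pcna, the sliding clamp of the replicative polymerases, was 215 to 453 CPM (median 282, n = 6) in healthy, 160, 148, 165, 125 and 202 CPM in acute, 141, 154, 169, 128 and 135 CPM in fibrosis and 250 to 360 CPM (median 281, n = 6) in cirrhosis libraries. It fell in the acute (log2 -0.88 ± 0.21, adjusted p = 0.00204) and fibrosis groups (-0.97 ± 0.19, adjusted p = 0.000619) without overlap, and cirrhosis libraries lay inside the healthy range (-0.01 ± 0.19, adjusted p = 0.964). Rrm1, the large subunit of ribonucleotide reductase, stayed between 27 and 44.6 CPM in all 22 CCl4 libraries and was called once, higher in cirrhosis than in fibrosis (log2 0.61 ± 0.063, adjusted p = 2.36e-06). Rrm2, the small subunit, whose supply is tied to S phase, was close to the detection limit: 6 to 28 counts in healthy libraries, 0 to 6 in acute and in fibrosis, and 20 to 71 in cirrhosis. Its groups did not overlap between either early stage and healthy at this CPM scale, and it was called lower in both (log2 -3.46 ± 0.70, adjusted p = 0.000659 and -2.53 ± 0.63, adjusted p = 0.00297), values that depend on the small count added before taking logs. It passed the filter on low counts there through the healthy libraries, did not pass it between fibrosis and acute, and is 1 of the 13 and of the 14 members counted as lower. Tyms, thymidylate synthase, rose in all 3 stages, from 8.43 ± 3.87 CPM in healthy to 17.4 ± 2.72, 17.5 ± 2.8 and 15.7 ± 3.09 (log2 1.16 ± 0.28, adjusted p = 0.00229, 1.2 ± 0.28, adjusted p = 0.00191 and 0.99 ± 0.26, adjusted p = 0.00633). In T TAA control Tyms and Rrm2 were lower than in T control (log2 -0.66 ± 0.14, adjusted p = 0.00257 and -1.28 ± 0.36, adjusted p = 0.0135), and Pcna averaged 294 ± 43.5 in T control and 382 ± 45 CPM in T TAA control (log2 0.38, under the threshold).

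The proliferation markers were lowest in acute and highest in cirrhosis libraries within the CCl4 series. Mki67 (ENSRNOG00000028137), which encodes the proliferation antigen Ki-67, was 2.57 to 10.6 CPM (median 6.71, n = 6) in healthy libraries, 2.37, 2.83, 2.94, 2.56 and 3.51 CPM in acute, 6.43, 5.24, 7.98, 5.02 and 3.94 CPM in fibrosis and 9.07 to 34.7 CPM (median 16.9, n = 6) in cirrhosis libraries. The acute libraries at 2.37 and 2.56 CPM lay just under the healthy range and the other acute libraries in its lower part. Fibrosis libraries lay inside the healthy range, and all cirrhosis libraries except replicate 5 above it. Mki67 rose in cirrhosis against healthy (log2 1.68 ± 0.41, adjusted p = 0.00393), against acute (2.71 ± 0.42, adjusted p = 6.17e-05) and against fibrosis (1.72 ± 0.39, adjusted p = 0.00142), and the last 2 contrasts had no overlap. It was called lower in acute than in healthy (log2 -0.99 ± 0.41, adjusted p = 0.0416), a call lost in 12 of 22 alternative analyses. Mki67 was called higher in fibrosis than in acute (1.06 ± 0.21, adjusted p = 0.00867), which was lost in 1 of 20, the 1 fit over the CCl4 groups.

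Top2a (ENSRNOG00000053047), the topoisomerase that untangles sister chromatids, was 0.942 to 3.15 CPM (median 1.8, n = 6) in healthy, 0.381, 0.49, 0.444, 0.346 and 0.6 CPM in acute, 1.12, 0.374, 1.03, 0.631 and 0.408 CPM in fibrosis and 2.07 to 10.8 CPM (median 4.31, n = 6) in cirrhosis libraries. All acute libraries were below all healthy ones, and all cirrhosis libraries were above all acute and fibrosis libraries. Top2a fell in the acute (log2 -1.9 ± 0.40, adjusted p = 0.000779) and fibrosis groups (-1.33 ± 0.43, adjusted p = 0.0137) and rose in cirrhosis (1.33 ± 0.43, adjusted p = 0.0177), with direct contrasts of cirrhosis against acute of 3.27 ± 0.54, adjusted p = 1e-04 and against fibrosis of 2.72 ± 0.58, adjusted p = 0.000996.

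The mitotic entry genes did not move as a unit. Ccna2, cyclin A2, which acts in S phase and at mitotic entry, averaged 0.656 ± 0.256 CPM in healthy and 1.31 ± 0.353, 1.49 ± 0.304 and 1.58 ± 0.841 in acute, fibrosis and cirrhosis libraries, and rose in all 3 (log2 1.05 ± 0.34, adjusted p = 0.0134, 1.3 ± 0.30, adjusted p = 0.00191 and 1.2 ± 0.39, adjusted p = 0.0178). Ccnb1, cyclin B1, the activator of Cdk1 at mitosis, was 0.942 to 1.61 CPM (median 1.42, n = 6) in healthy, 2.56, 2.21, 2.56, 2.95 and 1.86 CPM in acute, 3.44, 2.56, 3.79, 2.64 and 2.68 CPM in fibrosis and 1.7 to 5.52 CPM (median 2.5, n = 6) in cirrhosis libraries. No library of any stage overlapped the healthy range, and the log2 rises were 0.84 ± 0.23, adjusted p = 0.00524, 1.18 ± 0.22, adjusted p = 0.000364 and 0.95 ± 0.31, adjusted p = 0.0177. Cdk1, the mitotic kinase itself, fell while its cyclins rose in the early stages: it averaged 2.65 ± 0.858 CPM in healthy, 1.24 ± 0.375 in acute and 1.29 ± 0.423 in fibrosis (log2 -1.03 ± 0.33, adjusted p = 0.0117 and -0.96 ± 0.33, adjusted p = 0.0178), with overlap. In cirrhosis it averaged 3.95 ± 2.64 CPM and was not called against healthy (log2 0.44 ± 0.39, adjusted p = 0.356), but was higher than in acute (1.49 ± 0.45, adjusted p = 0.00871) and fibrosis libraries (1.45 ± 0.48, adjusted p = 0.0153).

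**Figure D3:**
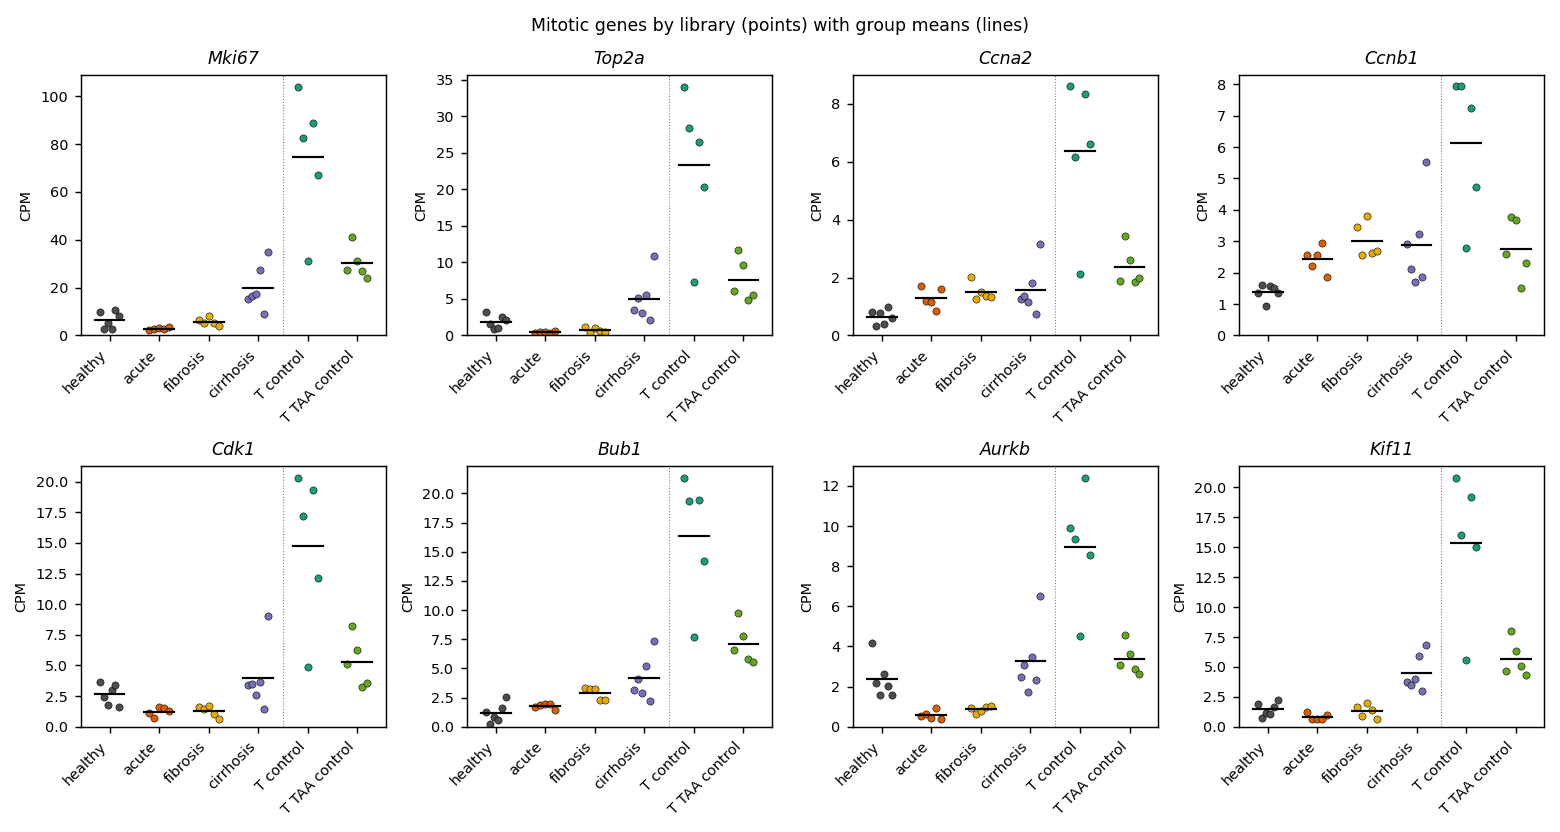
Each panel plots the TMM-scaled CPM of 1 mitotic gene in the 32 libraries (points) with the group mean (line) on a linear axis from 0; the dotted line separates the CCl4 series from the T libraries, which were scaled separately. For Mki67 the acute libraries lie between 2.37 and 3.51 CPM and the cirrhosis libraries between 9.07 and 34.7 CPM, and in T control 1 library lies well below the other 4.

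Of the 10 spindle and segregation genes, 1 was called in the acute group, 4 in fibrosis and 4 in cirrhosis. These shares were below those of all genes (73.4%, 70.2% and 51.8%). Aurkb, the kinase of the chromosomal passenger complex, was 1.56 to 4.18 CPM (median 2.1, n = 6) in healthy, 0.545, 0.654, 0.444, 0.921 and 0.411 CPM in acute, 0.947, 0.655, 0.765, 0.976 and 1.05 CPM in fibrosis and 1.75 to 6.49 CPM (median 2.8, n = 6) in cirrhosis libraries, and both early stages lay wholly below the healthy range. It fell by 1.89 ± 0.35, adjusted p = 0.000358 and 1.27 ± 0.31, adjusted p = 0.00287 on the log2 scale, and was higher in cirrhosis than in acute libraries (2.35 ± 0.40, adjusted p = 0.000124). Its partner Birc5 (survivin) was called lower in fibrosis (log2 -0.72 ± 0.26, adjusted p = 0.0224), a call lost in 3 of 21 alternative analyses. Bub1, a kinase of the spindle checkpoint, rose from 1.18 ± 0.824 CPM in healthy to 2.88 ± 0.545 in fibrosis and 4.15 ± 1.89 in cirrhosis (log2 1.65 ± 0.48, adjusted p = 0.00758 and 2.01 ± 0.49, adjusted p = 0.00416), and its checkpoint relative Bub1b was called in cirrhosis (1.45 ± 0.40, adjusted p = 0.00804). Kif11, the motor that separates spindle poles, was 0.719 to 2.2 CPM (median 1.43, n = 6) in healthy and 2.96 to 6.81 CPM (median 3.89, n = 6) in cirrhosis libraries, with no overlap (log2 1.62 ± 0.30, adjusted p = 0.000865). Against these rises, Cdc20, the activator of the anaphase-promoting complex, fell in cirrhosis from 6.67 ± 1.63 to 3.37 ± 0.992 CPM (log2 -0.97 ± 0.24, adjusted p = 0.00459). Between cirrhosis and acute, Bub1 (log2 1.09), Bub1b (1.52), Aurkb and Kif11 (2.39) were higher and Cdc20 (-0.81) was lower, and between cirrhosis and fibrosis Bub1b (1.16, lost in 3 of 21 alternative analyses), Aurkb (1.76), Birc5 (0.97) and Kif11 (1.81) were higher and Cdc20 (-0.73) was lower. Bub1 was also higher in fibrosis than in acute libraries (0.73 ± 0.18, adjusted p = 0.0201), a call lost in 2 of 20 alternative analyses. Kif20a, a motor of cytokinesis, was called higher in fibrosis (log2 0.59 ± 0.22, adjusted p = 0.0274), a call lost in 11 of 21 alternative analyses. Plk1, a kinase of mitotic progression, was called in 1 comparison, fibrosis against acute (log2 0.64 ± 0.18, adjusted p = 0.0337), and this was lost in 12 of 20. Aurka, the centrosomal kinase, was called in none of the 7 comparisons (log2 between -0.37 and 0.24), and Tpx2, which activates Aurka on the spindle, was called in none of the 6 within the CCl4 series, at log2 0.8 ± 0.33, adjusted p = 0.0511 in cirrhosis against healthy.

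A single cirrhosis library set the upper end of most of these genes. Over 15 mitotic genes, cirrhosis replicate 6 was the highest of its group in 14 and replicate 5 the lowest in 12. Replicate 6 also had the highest stellate marker sum of the group (596 CPM) and the lowest hepatocyte sum (3020 CPM), and replicate 5 the lowest stellate sum (235 CPM). Replicates 1, 3 and 2, with stellate sums of 445, 446 and 475 CPM, had proliferation marker sums of 18.7, 20.3 and 21.6 CPM. Replicates 5, 1, 3, 2 and 6 thus held the same order in both sums (proliferation 11.1 CPM in replicate 5, 45.5 CPM in replicate 6). Replicate 4 broke that order, with a stellate sum of 348 CPM and a proliferation marker sum of 33 CPM. Without replicate 6, 16 members were called against healthy, 10 higher and 6 lower, and without replicate 5 there were 18, 12 higher and 6 lower. Of all genes, 49.4% and 49.3% were called in these fits. Mki67 was still called without replicate 6 (log2 1.5, adjusted p = 0.00865), and so was Top2a (log2 1.07, adjusted p = 0.0317). The stellate cell marker list, which covers the collagen-producing cells of the sinusoid, had 6 of 9 genes called higher in cirrhosis, with a summed level of 235 to 596 CPM against 173 to 302 CPM in healthy libraries, and none of the 9 was at 0 in either group. Its part in the mitotic levels was not tested. Over all genes tested, 27.1% were called higher and 24.7% lower. The LSEC list had 1 gene called higher and 4 lower of 11, and 5 of 11 genes of the response to tissue dissociation, described below, were lower. Of the markers tested, 3 of 4 neutrophil and 2 of 5 cholangiocyte genes were higher. The summed levels of these 2 lists overlapped: neutrophil 2.95 to 13.7 CPM in cirrhosis and 3.51 to 44.9 CPM in healthy, cholangiocyte 6.07 to 10.8 and 1.72 to 26.6 CPM.

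In the early stages, where 73.4% (acute) and 70.2% (fibrosis) of all genes were called, other lists changed as well. In the acute group 9 of 11 LSEC markers and all 11 genes of the immediate response to tissue dissociation, such as Fos and Egr1, were called lower, and in fibrosis 10 of 11 and 10 of 11 were. The summed level of the dissociation genes was 41300 to 68000 CPM in healthy, 1410 to 4620 in acute, 4230 to 6840 in fibrosis and 20600 to 41900 CPM in cirrhosis libraries. Macrophage markers were called lower in 9 of 10 genes tested in the acute group (summed level 84.8 to 249 CPM, healthy 374 to 4060) and in 10 of 10 in fibrosis (37.3 to 234 CPM), with Timd4 at 0 in all 5 libraries of each. Hepatocyte markers were called lower in 9 of 9 genes in acute (146 to 919 CPM, healthy 1310 to 27800) and in 6 of 9 in fibrosis (1310 to 5160 CPM). Of the stellate markers 1 was higher and 5 were lower of 8 tested in acute, and 3 were higher and 3 lower of 9 in fibrosis. Their summed level was 1310 to 2130 CPM in acute and 1270 to 1720 CPM in fibrosis, against 173 to 302 CPM in healthy libraries. Most of it was Reln, at 1310 to 2120 and 1170 to 1570 CPM (healthy 118 to 216 CPM). Lymphocyte markers were lower in 6 of 8 and 5 of 9. The part of these shifts in the levels of the members was not tested.

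**Figure D4:**
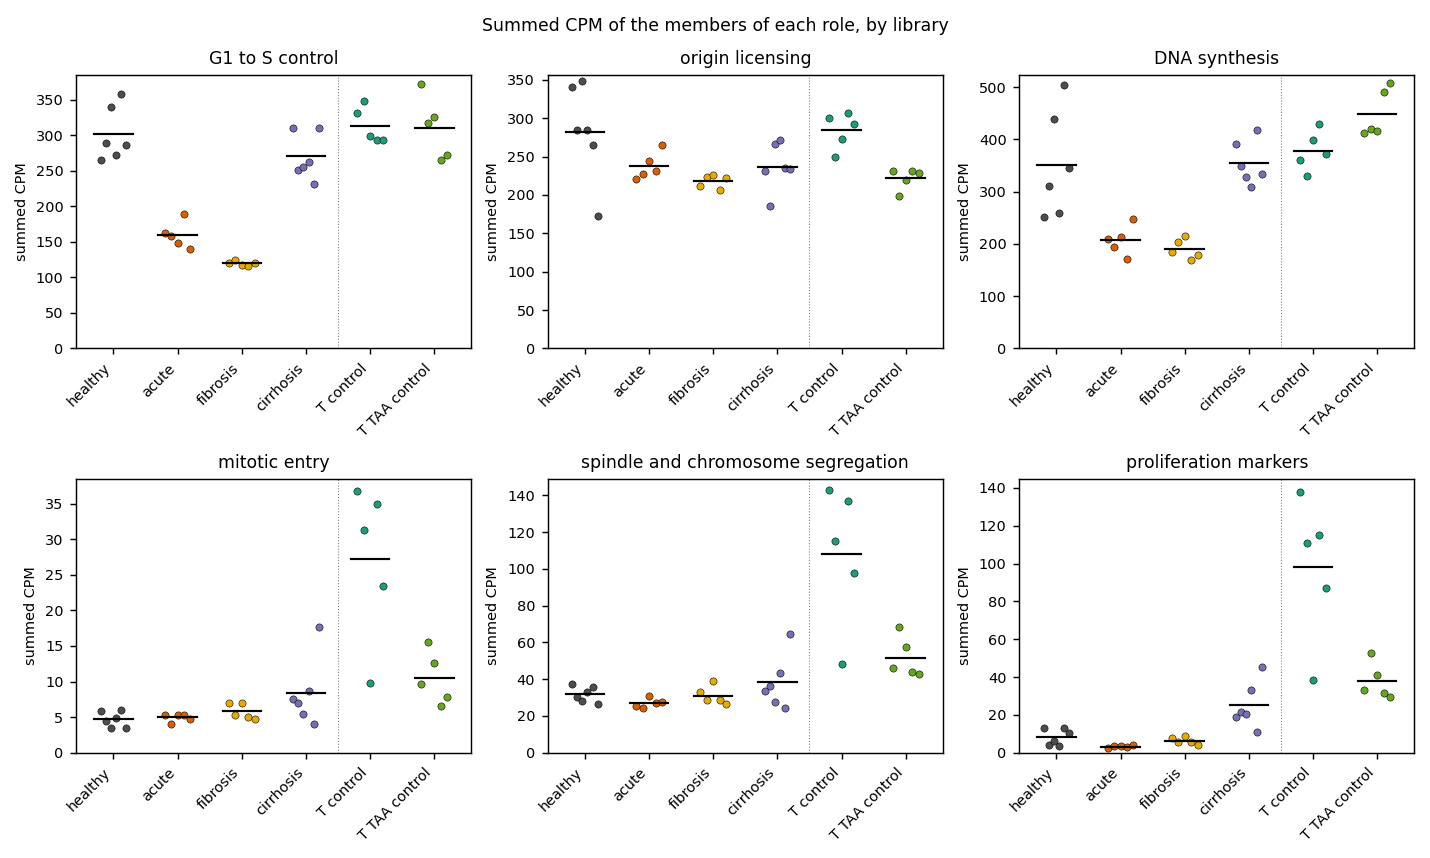
Each panel gives the summed CPM of the members of 1 role in every library (points) with the group mean (line), on a linear axis from 0; sums are weighted by the most abundant members. The G1 to S sum lies between 140 and 190 CPM in acute and 116 and 125 CPM in fibrosis libraries against 266 to 359 CPM in healthy, and the proliferation marker sum lies between 11.1 and 45.5 CPM in cirrhosis and 2.75 and 4.11 CPM in acute libraries. The T libraries, right of the dotted line, were scaled separately.

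In the second experiment the called members belonged to S phase and mitosis: both proliferation markers, all 3 mitotic entry genes, 7 of 10 spindle genes, 2 of 7 licensing genes and 2 of 4 DNA synthesis genes were lower in T TAA control than in T control. Of all genes tested, 14.9% were called lower there. Mki67 was 104, 82.6, 31.2, 88.8 and 66.9 CPM in T control and 27.3, 41.2, 31.3, 27 and 24.2 CPM in T TAA control libraries. Replicate 3 of T control sat within the range of the other group, and the remaining 4 were above it. The log2 difference was -1.22 ± 0.29, adjusted p = 0.00586. Top2a was 34, 28.4, 7.26, 26.5 and 20.3 CPM in T control and 6.11, 11.7, 9.68, 4.86 and 5.5 CPM in T TAA control libraries (log2 -1.51 ± 0.45, adjusted p = 0.0177), with the same single library overlapping.

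Cdk1 averaged 14.7 ± 6.35 (SD, n = 5) and 5.31 ± 2.05 CPM (n = 5) in T control and T TAA control (log2 -1.37 ± 0.45, adjusted p = 0.0254), Ccna2 6.36 ± 2.61 and 2.35 ± 0.68 (-1.32 ± 0.42, adjusted p = 0.0226) and Ccnb1 6.13 ± 2.29 and 2.77 ± 0.962 (-1.09 ± 0.36, adjusted p = 0.0268). Among spindle genes, Bub1b (-1.48 ± 0.40, adjusted p = 0.0101), Aurkb (-1.35 ± 0.29, adjusted p = 0.00307) and Kif11 (-1.33 ± 0.38, adjusted p = 0.0141) had the largest log2 differences, followed by Birc5 (-1.21), Bub1 (-1.14), Tpx2 (-1.11) and Kif20a (-1.05). Of 20 alternative analyses, the call of Kif20a was lost in 9, that of Ccnb1 in 4, those of Cdk1 and Tpx2 in 3 each, and those of Ccna2 and Tyms in 1 each. The 3 spindle genes not called were Plk1 (log2 -0.74 ± 0.42, adjusted p = 0.167), Cdc20 (-0.67 ± 0.28, adjusted p = 0.0664) and Aurka (-0.01 ± 0.13, adjusted p = 0.956).

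T control replicate 3 was the lowest of its group in all 15 mitotic genes, and T TAA control replicate 12 the highest of its group in 14. T control replicate 3 also had the lowest stellate sum of its group (638 CPM) and the highest macrophage (169 CPM) and lymphocyte sums (55.6 CPM), and T TAA control replicate 12 the highest stellate sum of its group (383 CPM). In T control, replicate 1, with a stellate sum of 689 CPM, was highest in 11 of the 15 genes, and replicate 2, with 1300 CPM, in 1. Replicates 1, 4, 5 and 2, in rising order of stellate sum, had proliferation marker sums of 138, 115, 87.2 and 111 CPM. In T TAA control, replicates 15, 14, 13, 10 and 12, in the same kind of order, had sums of 29.7, 31.8, 40.9, 33.4 and 52.9 CPM. Without T control replicate 3, 20 members were called, 1 higher and 19 lower, and Mki67 and Top2a differed by -1.51 and -1.88 on the log2 scale. Without T TAA control replicate 10 the count was 11. Of all genes, 28.2% and 27.2% were called in these fits. Other lists moved between these groups: 7 of 9 stellate markers were lower in T TAA control (summed level 211 to 383 CPM, T control 638 to 1300), with collagen Col1a1 at 2.77 to 14.2 CPM against 123 to 243 CPM, 6 of 9 hepatocyte markers were lower (651 to 1460 CPM, T control 2260 to 5600), and 10 of 11 dissociation genes were higher (41300 to 59000 CPM, T control 13400 to 27300). Lymphocyte markers were higher in 4 of 6 tested and cholangiocyte markers lower in 4 of 4. None of these stellate, hepatocyte and dissociation genes was at 0 in a T library. The LSEC sum was 25400 to 32900 CPM in T TAA control and 21400 to 26300 CPM in T control. Whether these lists bear on the mitotic genes was not tested.

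A list of 64 further cell cycle genes, 63 of them with a row, moved in both directions in the early stages too. Of 62 tested, 22 rose and 20 fell in the acute group, where 35.5% of all genes were called higher and 37.9% lower. In fibrosis 26 rose and 17 fell (35.3% and 34.9% of all genes). In cirrhosis 30 of 63 rose and 5 fell against healthy (27.1% and 24.7% of all genes). In T TAA control 1 was higher and 32 were lower than in T control (12.7% and 14.9% of all genes). Between the stages, 10 of 59 were higher and 0 lower in fibrosis than in acute (10.2% and 0.732% of all genes). In cirrhosis 31 of 63 were higher and 14 lower than in acute (37.5% and 31.8%), and 25 higher and 14 lower than in fibrosis (34.3% and 29.5%). Their median log2 fold changes were 0.05 (acute), 0.25 (fibrosis), 0.52 (cirrhosis) and -0.67 (T).

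The largest rises of that list in the acute group were Aspm, a spindle pole protein (log2 3.04 ± 0.46, adjusted p = 6.86e-05), and Smc2, a condensin subunit (log2 2.86 ± 0.45, adjusted p = 9.78e-05), and the largest falls were the transcription factor E2f2 (log2 -5.38 ± 0.64, adjusted p = 9.11e-06) and Ube2c, the ubiquitin-conjugating enzyme of the anaphase-promoting complex (log2 -3.53 ± 0.33, adjusted p = 1.05e-06). E2f2 was at 0.0272 to 0.278 CPM in acute libraries and 3.67 to 14.6 CPM in healthy ones, so it passed the filter through the healthy group, and its fitted value and its rank depend on the small count added before taking logs. In fibrosis they were Aspm (log2 3.93 ± 0.35, adjusted p = 9.74e-07) and Wee1, the kinase that holds Cdk1 inactive (log2 2.71 ± 0.23, adjusted p = 5.65e-07), and again E2f2 (log2 -3.39 ± 0.50, adjusted p = 6.62e-05) and Ube2c (log2 -3.17 ± 0.29, adjusted p = 1.15e-06). Wee1 averaged 13.7 ± 4.58 CPM in healthy, 85.2 ± 25.5 in acute, 82 ± 13.2 in fibrosis and 24.1 ± 4.5 in cirrhosis libraries. In cirrhosis the largest rises were Nusap1, a spindle microtubule protein (log2 2.14 ± 0.43, adjusted p = 0.00138), and the kinetochore motor Cenpe (log2 1.98 ± 0.52, adjusted p = 0.0063), and the largest falls were Ccnd3, the third D-type cyclin (log2 -1.46 ± 0.23, adjusted p = 0.000315), and the licensing factor Cdt1 (log2 -1.28 ± 0.25, adjusted p = 0.001).

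Between the T groups the single rise was Gins2, a part of the replicative helicase (log2 0.83 ± 0.13, adjusted p = 0.00044), and the largest falls were Myc, a growth-promoting transcription factor (log2 -2.37 ± 0.21, adjusted p = 2.05e-05), and the kinetochore protein Cenpf (log2 -1.94 ± 0.43, adjusted p = 0.00347). Cdkn1a, the inhibitor p21, averaged 1230 ± 357 CPM in healthy, 480 ± 110 in acute, 432 ± 44.1 in fibrosis and 551 ± 107 in cirrhosis libraries, and was called lower than healthy in all 3 (log2 -1.29, -1.39 and -1.12). It was called in none of the other 4 comparisons (log2 between -0.09 and 0.33). Foxm1, a transcription factor of mitotic genes, was called in none of the 7 comparisons (log2 between -0.55 and 0.2). Mybl2, which acts with it, fell in acute (log2 -2.47) and fibrosis (-1.33), was 0.03 in cirrhosis against healthy, was higher in fibrosis than in acute (1.19) and in cirrhosis than in acute (2.52) and fibrosis (1.39), and was lower in T TAA control (-1.81).

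Reads shared with neighbours could not be separated for some members. In RefSeq on GRCr8, 13 of the 35 members overlap another annotated gene, among them Aurka (Fam210b), Ccne2 (Ints8), Cdk2 (Pmel), Cdk4 (Tspan31), Kif11 (Ide), Kif20a (Cdc23), Plk1 (Ern2) and Rrm2 (Cys1), and the strand setting of the counting is not given in the sources used here.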

How the data were processed

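LSECs were isolated on an iodixanol gradient, and polyA RNA was sequenced as stranded libraries. The authors trimmed reads with Trim Galore, aligned them with STAR to Rnor_6.0 and deposited RSEM expected counts per gene, tool versions not given in the sources used here. The expected counts deposited for 32623 genes were rounded to whole numbers. Groups came from the sample labels.

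Each of 7 comparisons was fitted on its 2 groups alone with limma 3.58.1 (voom) after filterByExpr and TMM in edgeR 4.0.16 under R 4.3.3, adjusted by the Benjamini-Hochberg method over all genes tested. A call needed an adjusted p under 0.05 and a fold change above 1.5. Alternatives were edgeR's quasi-likelihood test, DESeq2 1.42.0, other scaling factors, other filters, unadjusted p, no fold threshold, 1 fit over the CCl4 groups, a replicate block, merging 2 close libraries, and leaving out each library.

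The members and lists were chosen with earlier results of these data known. All members are named, grouped by role. Of the other cell cycle genes, the 2 largest rises and 2 largest falls called in each comparison with healthy and between the T groups are named, plus Cdkn1a, Foxm1 and Mybl2. No set test was made. At totals of 25646531 to 46464289 counts, genes near 1 CPM rest on few reads and carry large counting error. The 11 members without a RefSeq promoter entry are Aurkb, Ccna2, Ccnd1, Ccnd2, Ccne2, Cdc6, Cdk6, E2f1, Mcm4, Rrm2 and Tpx2.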

Additional observations from a re-analysis of the deposited data

Results flagged for a closer look

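Of 204 sets of libraries looked at (34 members in 6 groups), 12 held a library set apart from the rest by Dixon's ratio at the 95% level, where chance marks about 1 in 20, or 10.2. In T control, replicate 3 was lowest for Birc5 (2.07 CPM, the others 4.73 to 6.49), Ccna2 (2.11 CPM, the others 6.17 to 8.6) and Kif11 (5.59 CPM, the others 15 to 20.8), and replicate 1 was lowest for Cdc6 (5.64 CPM). In the acute group, replicate 1 was lowest for Birc5 (0.436 CPM), and replicate 8 was highest for Ccne2 (4.99 CPM) and for E2f1 (5.18 CPM). In the other groups the libraries set apart were healthy replicate 3 for Ccnb1 (0.942 CPM), fibrosis replicate 17 for Ccnd1 (5.63 CPM), cirrhosis replicate 6 for Cdk4 (54.0 CPM), cirrhosis replicate 2 for Rrm1 (37.4 CPM) and T TAA control replicate 10 for Cdk6 (8.59 CPM).

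A second set of results was marked because a gene was called in opposite directions against healthy in cirrhosis and in an earlier stage, and the direct limma-voom contrast of the stages also differed. The contrasts with healthy share the healthy libraries. Cirrhosis minus fibrosis was 2.04 (log2, adjusted p = 2.97e-07) for Mcm4, -2.33 (5.16e-10) for Mcm7 and 2.72 (0.000996) for Top2a. Cirrhosis minus acute was -2.33 (adjusted p = 1.01e-08) for Mcm7, 2.71 (6.17e-05) for Mki67 and 3.27 (0.0001) for Top2a.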

How the results depend on the processing

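No call reversed its direction in any alternative. Over 5021 gene values recomputed, 4847 kept their side of the threshold, 80 lost and 94 gained a call. The count between fibrosis and acute was the exception, with 1 member called in 1 fit over the CCl4 groups (0 higher, 1 lower) against 4, and for all genes 746 against 1529 (1011 without acute replicate 1, 2826 with no fold threshold; in T, 7139 against 3970 with none). The cause was not tested. Leaving out each library in turn gave 17 to 19 members called in acute vs healthy (71.3 to 74.6% of all genes), 19 to 21 in fibrosis vs healthy (67.7 to 72.1%) and 15 to 18 in cirrhosis vs healthy (45.6 to 56.8%). It gave 2 to 6 in fibrosis vs acute (7.17 to 15.4%, 2 members without acute replicate 1), 23 to 27 in cirrhosis vs acute (68 to 69.4%), 21 to 22 in cirrhosis vs fibrosis (62.4 to 63.9%) and 11 to 20 between the T groups (25.1 to 28.4%). Calls lost in no alternative that tested the gene numbered 16 of 19, 15 of 21, 13 of 16, 1 of 4, 23 of 23, 20 of 22 and 10 of 16, in that order. Low counts kept Rrm2 out of some: it was tested in 15 of 22 in acute vs healthy and 15 of 21 in fibrosis vs healthy. It was tested in 21 of 22 in cirrhosis vs acute and 20 of 21 in cirrhosis vs fibrosis. Top2a was tested in 21 of 22 in acute vs healthy. Merging T TAA control replicates 14 and 15 gave 16 (27% of all genes). Upper-quartile scaling moved the median of all genes to 0.21 in cirrhosis vs healthy and 0.22 in cirrhosis vs acute.

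Whether replicate numbers shared between groups mark paired libraries could not be settled with 4 to 6 pairs. Correlations of the deviations of same-numbered libraries ran from 0.04 to 0.15 (acute vs healthy), from -0.21 to 0.23 (cirrhosis vs healthy) and from -0.07 to 0.06 (cirrhosis vs acute). Libraries matched their own number best in 2 of 4, 1 of 6 and 0 of 4 pairs. A replicate block was fitted on the same-numbered libraries alone (4, 6 and 4 pairs), so libraries without a partner were left out. With it, 18 members were called in acute vs healthy (7 higher, 11 lower), 17 in cirrhosis vs healthy (11 higher, 6 lower) and 25 in cirrhosis vs acute (19 higher, 6 lower). Of all genes tested, 76.5%, 49.2% and 67% were called in the same order. The remaining comparisons share no numbers.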
